A study of Mus musculus with 16 samples.

Results

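Iron and heme handling was followed through 8 genes, Trf, Tfrc, Fth1, Ftl1, Slc40a1, Cp, Cd163 and Hmox1, in single cells of the mouse spinal cord before and after a dorsal column lesion. The genes were chosen by name, with earlier results of these data known. Of these genes, 8 of 8 were found among the 55487 gene symbols of the deposited count table. They were described in each of the 17 clusters that the authors had defined and annotated, and at each time point.

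Iron travels in plasma bound to transferrin, enters cells through the transferrin receptor, is stored inside ferritin shells and leaves cells through ferroportin, after which ferroxidases such as ceruloplasmin load it onto transferrin. Blood that enters tissue brings haemoglobin, which macrophages take up through Cd163, and heme is then opened by heme oxygenase, which frees iron, carbon monoxide and biliverdin. In the central nervous system, oligodendrocytes are known for a high content of ferritin and transferrin, endothelial cells of the barrier for the transferrin receptor, and microglia and macrophages for the clearance of iron and heme.

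Spinal cord tissue was taken from 16 mice aged 8 to 10 weeks, in injured mice from around a C5 dorsal column lesion. Each mouse gave 1 droplet 3′ library in which unique molecular identifiers (UMIs, single captured RNA molecules) were counted. The mice called cKO here carried Rykfl/fl with GFAPcreERT2, and those called WT were Ryk+/+ with the same GFAPcreERT2, so that the Cre transgene was shared by both genotypes. Each genotype was sampled uninjured (Sham in the labels) and on day 1, day 7 or day 14 of injury, in 8 groups of 2 mice. The study asks what loss of the Wnt receptor Ryk from astrocytes does after injury. Its methods give daily tamoxifen from before the operation without naming a genotype, and the GFAP promoter limits Cre to cells in which that promoter is active, so the share of cells that lost Ryk is not known from these files.

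Total UMIs were 3074681 and 2117284 in the uninjured WT mice (replicates 1 and 2) and 774242 and 1963422 in the uninjured cKO mice. At 1 d, the WT mouse of replicate 1 had 536263 UMIs, and the cKO mice had 666731 and 4601448. At 7 d, totals were 649625 and 3032957 in WT and 1236573 and 9008729 in cKO, and at 14 d they were 3074365 and 8786767 in WT and 6559483 and 7264837 in cKO. Depth thus differed widely between mice, and low counts limit what can be seen in the thinner ones. Levels are given as CPM, the share of a gene among all UMIs of the cells of a cluster in a mouse, in ppm, for each mouse with at least 10 cells in that cluster.

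Several libraries stood apart. WT 1 d replicate 2 held 1 cell with 266 UMIs and was left out, leaving 1 WT mouse at 1 d, whose spread is taken from the other groups. Replicate 1 of both genotypes at 1 d and at 7 d had medians of 414 to 548 UMIs per cell, against 1040.5 to 3637 in the other 11 mice. The names of the cells carry a condition other than that of the sample title in 6 mice, 5 of them used. By those names, uninjured WT replicate 2 would be uninjured cKO, uninjured cKO replicate 2 would be WT at 7 d, WT 7 d replicate 2 would be WT at 1 d, WT 14 d replicate 2 would be cKO at 14 d, and cKO 14 d replicate 2 would be cKO at 7 d. The titles were followed, and tests were repeated with the conditions of the names and without these mice wherever enough mice were left.

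Cell barcodes were also shared between libraries. Of 17937 different barcodes, 166 were found in more than 1 library, in 432 cells, and 358 of these cells lay in the 4 mice of low depth. WT 1 d replicate 1 and WT 7 d replicate 1 shared 115 barcodes, of which 108 were in the same cluster in both. The other pairs among those 4 mice shared 28 to 71 barcodes, and no other pair of libraries shared more than 4. Tests were repeated without these cells, which was an alternative added only once the data had been seen. Without them, 0 of the 5 calls below (adjusted p under 0.05 from edgeR) was lost.

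The authors' annotations were compared with marker lists, each summed per mouse. In Cluster 1 (annotated as endothelial), Clusters 6 and 10 (microglial), Clusters 4 and 8 (oligodendrocytes), Cluster 9 (pericytes) and Cluster 14 (fibroblasts), the list of the annotated type had the highest mean over mice. Single mice differed: in Cluster 14, cKO 1 d replicate 2 had 1681 CPM of fibroblast and 3823 CPM of oligodendrocyte markers, in Cluster 1, cKO 7 d replicate 2 had 16862 CPM of endothelial and 17463 CPM of red blood cell markers, and in Cluster 10 another list led in 3 of 14 mice. Cluster 5 (astrocytes) had 15151 ± 2469 CPM of astrocyte markers (SD, n = 14 mice), led by Slc1a2, and 10155 ± 6355 CPM of oligodendrocyte markers, led by Mbp. The oligodendrocyte list stood higher in replicate 2 of uninjured WT (14523 against 11827 CPM) and of uninjured cKO (18340 against 11237 CPM). It was also higher in WT 7 d replicate 2 (16989 against 16408 CPM) and cKO 14 d replicate 2 (16661 against 15974 CPM). Cluster 12 (Immuno) was led by the macrophage and monocyte list, with 21003 ± 9220 CPM (SD, n = 10 mice), and Cluster 16 (myeloid) by the neutrophil list. In Cluster 10, macrophage markers summed to 3606 ± 2624 CPM (SD, n = 14 mice). Cluster 2, annotated as astrocytes, went against its label: oligodendrocyte markers summed to 17180 ± 8456 CPM and astrocyte markers to 7655 ± 2167 CPM (SD, n = 11 mice), so it is called by its number. In WT 7 d replicate 1, endothelial markers led Cluster 2, at 13348 CPM against 3939 CPM of oligodendrocyte and 2407 CPM of astrocyte markers. Uninjured WT replicate 1 had 5476 CPM of endothelial markers there. In Cluster 11 (OPC) the oligodendrocyte list, at 6833 ± 4006 CPM, also stood above that of the precursors, at 3470 ± 917 CPM (SD, n = 14 mice). In Cluster 13 (Unk), ependymal markers summed to 3313 ± 979 CPM and oligodendrocyte markers to 2741 ± 1989 CPM (SD, n = 10 mice), with the latter higher in all 5 mice of replicate 2, so no type is named for it.

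Ryk itself (ENSMUSG00000032547.12, chromosome 9 of mm10, 102834917 to 102908305) was measured in the astrocyte clusters. In Cluster 7, uninjured WT mice had 123 and 138 CPM and uninjured cKO mice 78.3 and 192 CPM. After injury, WT mice had 129 CPM at 1 d, 239 and 147 CPM at 7 d, and 152 and 139 CPM at 14 d. The cKO mice had 36.1 and 117 CPM at 1 d, 56.1 and 138 CPM at 7 d, and 165 and 153 CPM at 14 d. WT and cKO overlapped, and so they did in Cluster 5, where WT mice ranged from 44.3 to 139 CPM and cKO mice from 0 to 142 CPM. Reads from the 3′ end need not fall in the stretch that Cre removes, so these counts check nothing about the genotypes.

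**Figure D1:**
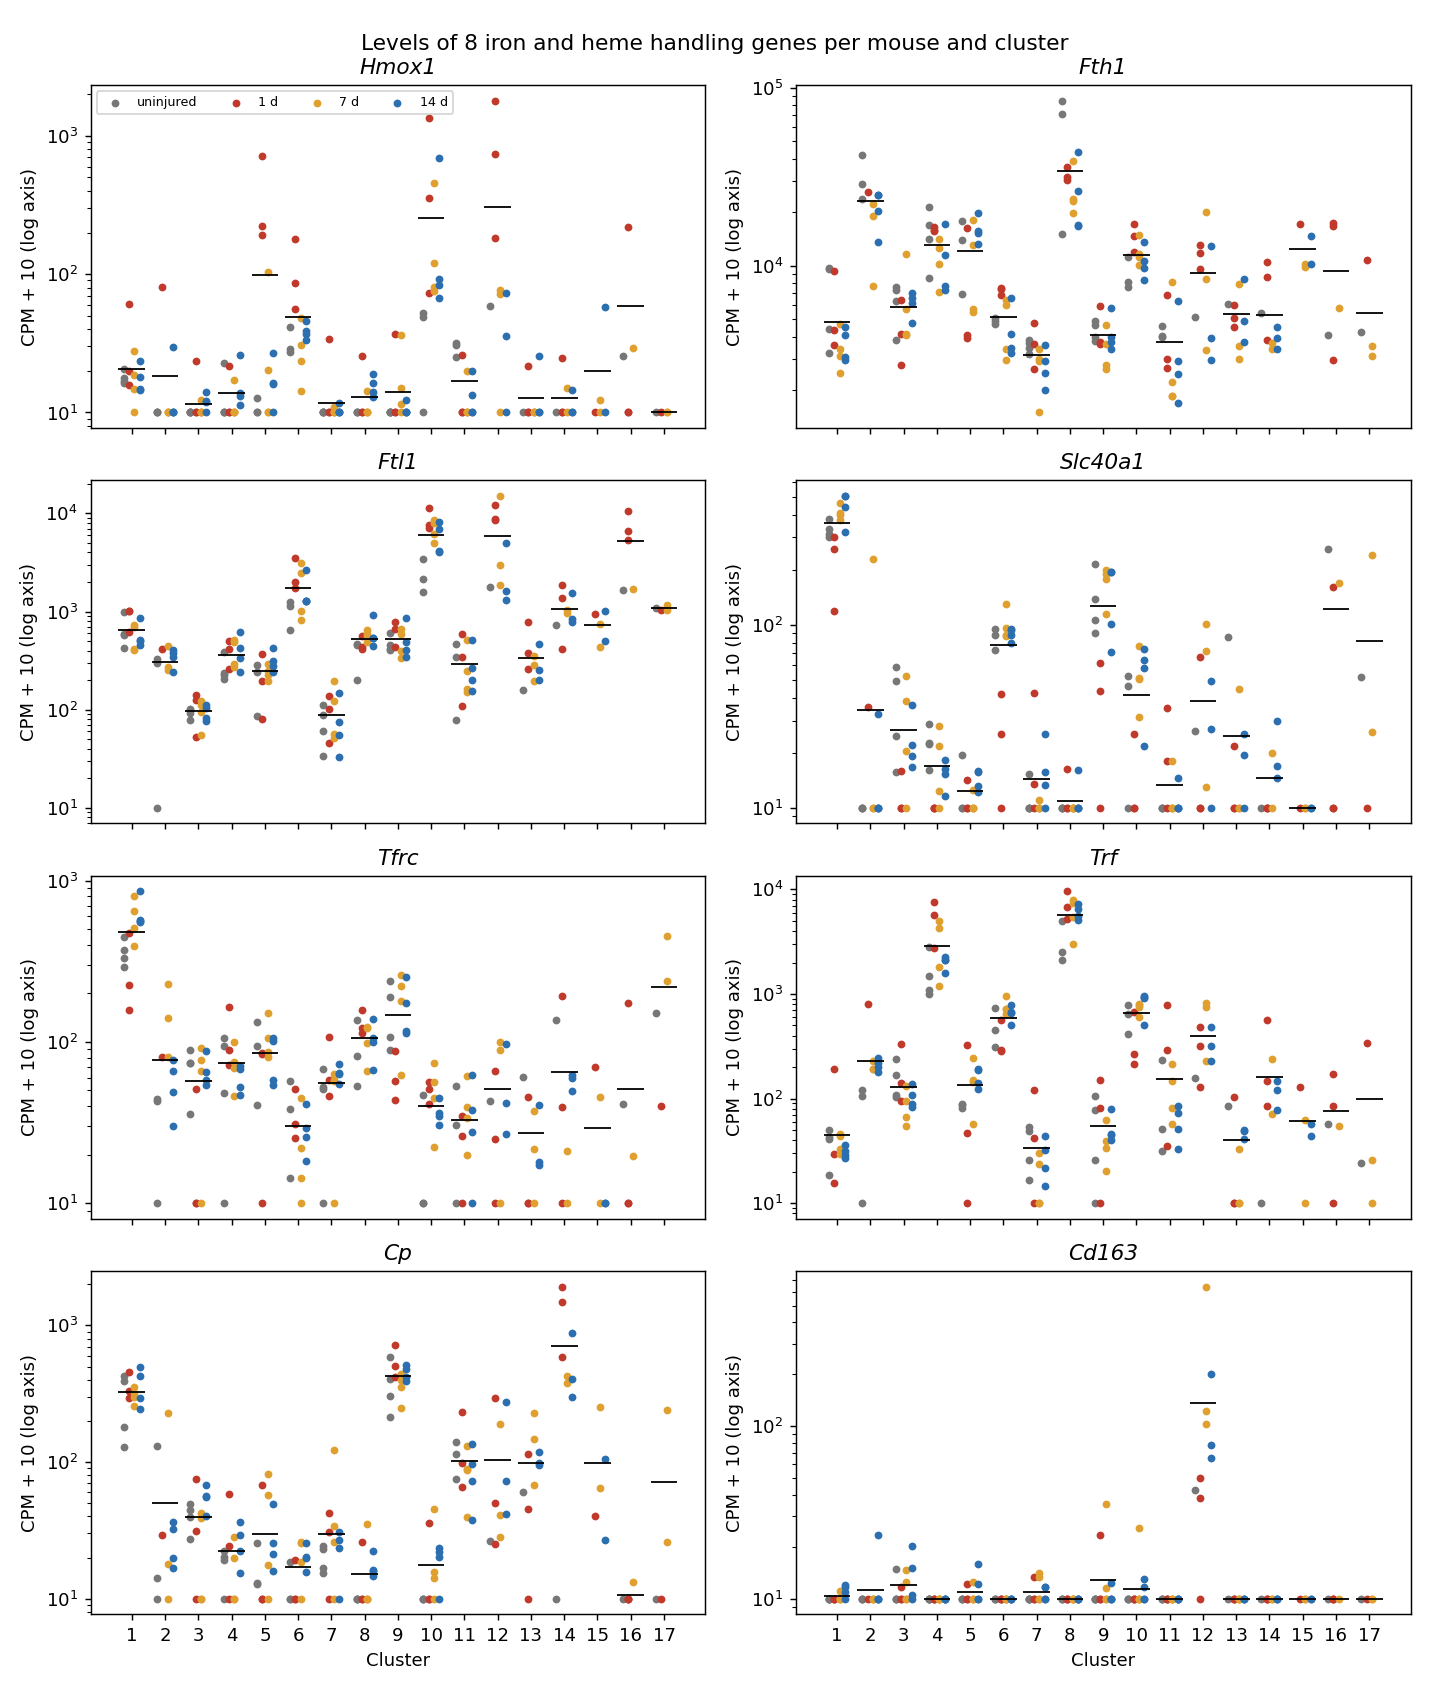
Level of each of the 8 genes in each mouse (points, coloured by time point) and cluster (x axis), as CPM + 10 on a log axis, with the mean over mice as a bar. Trf and Fth1 had their highest mean in Cluster 8, Tfrc and Slc40a1 in Cluster 1, Ftl1 in Cluster 10, Cp in Cluster 14, and Hmox1 and Cd163 in Cluster 12.

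Trf (ENSMUSG00000032554.15, chromosome 9, 103204001 to 103230444), which encodes the iron carrier transferrin, was an oligodendrocyte transcript. It was at 5653 ± 2117 CPM in Cluster 8 (SD, n = 14 mice) and at 2838 ± 1937 CPM in Cluster 4 (SD, n = 15 mice), both annotated as oligodendrocytes, and Cluster 8 stood above Cluster 4 in 14 of 14 mice, by 1.10 ± 0.50 on the log2 scale. The clusters annotated as microglia came next, with 649 ± 236 CPM for Cluster 10 and 581 ± 200 CPM for Cluster 6 (SD, n = 14 mice), which did not differ beyond their spread (0.13 ± 0.37). Oligodendrocyte markers summed to 1942 ± 1063 CPM and 1726 ± 513 CPM in them, close to the 1891 ± 656 CPM of Cluster 7. RNA carried over from other cells was not measured, so its share in these Trf values is open. The order from high to low was Clusters 8, 4, 10, 6, 12, 2, 14, 11, 5, 3, 17, 16, 15, 9, 1, 13 and 7. Cluster 7 was lowest, at 23.6 ± 27.9 CPM (SD, n = 15 mice). Here and below, clusters were compared within mice as log2(CPM + 10), with no p-value, since the same values had shaped the clusters.

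In Cluster 10, Trf was lower at 1 d than at 14 d. Uninjured mice had 778 and 403 CPM in WT and 637 CPM in cKO. At 1 d the WT mouse had 204 CPM (5 UMIs), and the cKO mice had 657 CPM (21 UMIs) and 258 CPM (50 UMIs). The 7 d values were 749 and 588 CPM in WT and 785 and 770 CPM in cKO, and those at 14 d were 491 and 899.6 CPM in WT and 925 and 941 CPM in cKO. Among the mice at 1 d, the WT mouse and cKO replicate 2 lay below all others, whereas cKO replicate 1 lay within the range of 14 d, so the groups overlapped. Counts were summed per mouse and cluster and fitted with edgeR (quasi-likelihood test, Benjamini-Hochberg adjustment over all genes tested in the cluster, threshold of 0.05). From 1 d to 14 d, Trf rose by a log2 fold change of 1.39 (standard error 0.36, adjusted p = 0.0293 from edgeR), with a median of 0.11 over all 4250 genes tested in that cluster.

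Within the first batch, as the cell table calls replicate number 1, this difference in Trf was 0.86 on the log2(CPM + 10) scale, and within the second it was 1.80. The call was lost without WT 1 d replicate 1 (1.14, adjusted p = 0.136), cKO 1 d replicate 2 (1.30, 0.166), WT 14 d replicate 2 (1.26, 0.0765), cKO 14 d replicate 1 (1.39, 0.0962) or cKO 14 d replicate 2 (1.38, 0.105), with adjusted p of 0.0127 to 0.166 over all mice left out in turn. It was also lost with conditions taken from the cell names (0.95, adjusted p = 0.555), without the mice whose names differ (1.39, 0.138) and with group means of all 8 conditions (1.66, 0.0636). Macrophage markers in Cluster 10 summed to 2689, 2063 and 391.6 CPM at 1 d and to 5472, 2557, 3469 and 4082 CPM at 14 d, with 8 of 8 listed genes detected over all mice and Lyz2 the most abundant. Single mice had 6, 5 and 5 of these genes at 1 d and 7, 7, 8 and 8 at 14 d. Oligodendrocyte markers, led by Mbp, summed to 937, 1938 and 2375 CPM at 1 d and to 774.5, 1422, 926 and 1775 CPM at 14 d. Red blood cell markers summed to 16215 CPM in cKO 1 d replicate 2, against 0 to 663 CPM in the other mice. The part of these cells in the Trf difference was not tested.

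Among oligodendrocytes, Trf in Cluster 4 was at 7582, 5690 and 2722 CPM in the 3 mice at 1 d and at 989 to 2778 CPM in the 4 uninjured mice. The lowest value at 1 d lay within the uninjured range. It did not pass the threshold (log2 fold change 1.61, standard error 0.50, adjusted p = 0.851 from edgeR). In Cluster 8, uninjured mice had 2082 to 4976 CPM and all 3 mice at 1 d were above them, at 5228 to 9573 CPM, again without a call. In both clusters the 2 mice of low depth at 1 d had the 2 highest values of the 1 d group.

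Tfrc (ENSMUSG00000022797.16, chromosome 16, 32608920 to 32632794), the receptor that takes in loaded transferrin, was highest in endothelial cells. It was at 469 ± 197 CPM in Cluster 1 (SD, n = 15 mice), above Cluster 17 (annotated as red blood cells), at 210 ± 174 CPM, in 4 of 4 mice (1.04 ± 0.66 on the log2 scale). Cluster 17 held other cells beside red ones, with endothelial markers at 10553 CPM in WT 7 d replicate 1 (51.6 to 449.7 CPM in the other 3 mice) and neutrophil markers at 37814 CPM in uninjured WT replicate 2, so its place is uncertain. Cluster 9 (pericytes) followed at 136 ± 74.5 CPM and Cluster 8 at 96.2 ± 30.6 CPM, which did not differ beyond their spread (0.34 ± 1.07). The order was Clusters 1, 17, 9, 8, 5, 2, 4, 14, 3, 7, 12, 16, 10, 11, 6, 15 and 13, and below Cluster 9 no 2 neighbours differed beyond their spread. Microglial Cluster 6 had 20.3 ± 14.6 CPM, and microglial Cluster 10 had 29.9 ± 17.9 CPM (SD, n = 14 mice).

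Over time, Tfrc in Cluster 1 was at 282 to 439 CPM in the 4 uninjured mice and at 216, 461 and 149 CPM in the 3 mice at 1 d. At 7 d it was at 381 to 797 CPM and at 14 d at 546 to 848 CPM. All 4 mice at 14 d lay above all mice at 1 d and above all uninjured mice. Neither difference was a call, with a log2 fold change of 1.12 from 1 d to 14 d (standard error 0.37, adjusted p = 0.209 from edgeR). In Cluster 9, values of 33.5 to 77.6 CPM at 1 d and 103 to 241 CPM at 14 d also did not overlap, with adjusted p = 0.578 from edgeR.

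Fth1 (ENSMUSG00000024661.7, chromosome 19, 9980598 to 9985098), which encodes the ferritin heavy chain, the subunit that oxidizes iron for storage, was detected in every mouse and every cluster. Its highest level was 34111 ± 20622 CPM in Cluster 8 (SD, n = 14 mice), followed by Cluster 2 at 23025 ± 8702 CPM (SD, n = 11 mice), and these did not differ beyond their spread (0.50 ± 0.74 on the log2 scale). Cluster 4 had 13092 ± 4280 CPM (SD, n = 15 mice) and lay below Cluster 2 in 10 of 11 mice (0.81 ± 0.70). From there the order was Clusters 15, 5, 10, 16, 12, 3, 17, 13, 14, 6, 1, 9, 11 and 7, with no 2 neighbours apart beyond their spread, and Cluster 7 had 3127 ± 795 CPM (SD, n = 15 mice). The 3 clusters with the most Fth1 were also those with the highest sums of oligodendrocyte markers, Cluster 2 included. Within the microglia, Fth1 was at 11485 ± 2797 CPM in Cluster 10 and at 5176 ± 1617 CPM in Cluster 6 (SD, n = 14 mice).

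Fth1 in Cluster 8 was at 15161 and 71036 CPM in the uninjured WT mice and at 84921 CPM in the uninjured cKO mouse. It was at 30370 to 35728 CPM at 1 d, at 19768 to 38682 CPM at 7 d and at 16780 to 43437 CPM at 14 d. Replicate 2 of both uninjured genotypes was high and uninjured WT replicate 1 was the lowest of all 14 mice, so the uninjured group spanned the injured ones. edgeR called neither 7 d (log2 fold change −1.96, standard error 0.71, adjusted p = 0.387) nor 14 d (−1.98, standard error 0.71, adjusted p = 0.279) against uninjured. DESeq2 called both (−2.05, adjusted p = 0.0182, and −2.11, adjusted p = 0.0178), and so did edgeR without uninjured WT replicate 1 (−2.37, adjusted p = 0.0425, and −2.39, adjusted p = 0.0384), while edgeR without the filter on low counts called 7 d alone (−1.75, adjusted p = 0.0492). Without uninjured WT replicate 2 the values were −0.85 (adjusted p = 0.659 from edgeR) and −0.89 (0.588), and with conditions taken from the cell names they were −0.03 (adjusted p = 1.00 from edgeR) and −0.71 (0.959). Both mice with high values are among those whose cell names give another condition. Astrocyte markers in Cluster 8 summed to 2995 and 2419.5 CPM in these 2 mice and to 437 CPM in uninjured WT replicate 1, and the Schwann cell list, which is led by Mbp, to 29207, 35062 and 4858 CPM. Mbp is on the oligodendrocyte list as well, so the Schwann cell list does not show Schwann cells here. The oligodendrocyte list summed to 54907, 66256 and 57925 CPM, in the same order of mice. Injured mice had 486 to 3198 CPM of astrocyte markers and 5315 to 17591 CPM of the Schwann cell list. WT 7 d replicate 2 was the highest of them for both lists, with Fth1 at 38682 CPM. The most Fth1 among them was in WT 14 d replicate 1, at 43437 CPM, with 486 CPM of astrocyte markers and 5579 CPM of the Schwann cell list. The part of other cells in the Fth1 values was not tested.

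Ftl1 (ENSMUSG00000050708.16, chromosome 7, 45457944 to 45459884), the ferritin light chain that aids the mineral core, was a transcript of phagocytes. It was at 5998 ± 2733 CPM in Cluster 10 (SD, n = 14 mice), 5887 ± 4934 CPM in Cluster 12 (SD, n = 10 mice) and 5212 ± 3773 CPM in Cluster 16 (SD, n = 5 mice). Neighbours among these did not differ beyond their spread. Cluster 6 had 1718 ± 884 CPM (SD, n = 14 mice) and lay below Cluster 16 in 5 of 5 mice (1.28 ± 0.86 on the log2 scale). The order then went through Clusters 17, 14, 15, 1, 9, 8, 4, 13, 2, 11, 5 and 3 to Cluster 7, at 78.0 ± 47.7 CPM (SD, n = 15 mice). Fth1 and Ftl1 thus differed in order: Clusters 8 and 2 had ranks 1 and 2 for the heavy chain and ranks 10 and 13 for the light chain. Near-identical copies of both genes exist, and how reads were shared among them is uncertain. The largest copy counted was Ftl1-ps1, with 391 UMIs against 48886 for Ftl1, and copies of Fth1 had at most 30 UMIs against 427375 for Fth1.

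In Cluster 10, Ftl1 stood higher in every injured mouse than in every uninjured one. Uninjured mice had 1556 and 2122 CPM in WT (40 and 58 UMIs) and 3395 CPM in cKO (80 UMIs). At 1 d the WT mouse had 11244 CPM, and the cKO mice had 7691 and 7038 CPM. Values at 7 d were 8599 and 6211 CPM in WT and 7946 and 4944 CPM in cKO, and those at 14 d were 8126 and 4174 CPM in WT and 6875 and 4052 CPM in cKO. The lowest injured value was cKO 14 d replicate 2 and the highest was the WT mouse at 1 d.

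The fitted log2 fold changes of Ftl1 in Cluster 10 against uninjured were 1.70 at 1 d (standard error 0.47, adjusted p = 0.116 from edgeR), 1.48 at 7 d (0.44, 0.150) and 1.29 at 14 d (0.44, 0.191), so none was called. DESeq2 called 1 d (1.60, adjusted p = 0.00695) and 7 d (1.31, 0.0287) but not 14 d (1.07, 0.0855), and without WT 14 d replicate 1 edgeR called 1 d (adjusted p = 0.0402) and 7 d (0.0438). Without the filter on low counts, edgeR called all 3 time points (adjusted p = 0.000243, 0.0000369 and 0.0000641). The median log2 fold change of all 4250 genes tested in Cluster 10 was itself 0.60 at 1 d, 0.63 at 7 d and 0.66 at 14 d, and DESeq2's size factors in place of edgeR's TMM scaling moved it by −0.15, −0.18 and −0.19. Ftl1 lay above that median at each time point. The other scaling moved Ftl1 along with the median, to 1.60, 1.31 and 1.07, so it gives no separate check. Uninjured Cluster 10 held 57 cells in 3 mice, and macrophage markers there summed to 739, 2598 and 891 CPM. Their part in the Ftl1 values was not tested.

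Beside Cluster 10, Ftl1 in Cluster 12 was at 8497 to 12053 CPM in the 3 mice at 1 d and at 1297 to 4989 CPM in the 3 mice at 14 d. These groups did not overlap, and the difference was no call (log2 fold change −1.84, standard error 0.86, adjusted p = 0.280 from edgeR). At 7 d, Cluster 12 ranged from 1836 to 15069 CPM, a range that overlapped those of 1 d and 14 d. In Cluster 6, Ftl1 was at 638 to 1248 CPM uninjured and at 1744 to 3487 CPM at 1 d, also without overlap and without a call (1.17, standard error 0.54, adjusted p = 0.353 from edgeR).

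Slc40a1 (ENSMUSG00000025993.10, chromosome 1, 45908068 to 45926523), which encodes the iron exporter ferroportin, was highest in endothelial cells. It was at 351 ± 101 CPM in Cluster 1 (SD, n = 15 mice), above Cluster 9 (117 ± 65.2 CPM) in 15 of 15 mice, by 1.74 ± 0.97 on the log2 scale. Cluster 16 had 112 ± 109 CPM (SD, n = 5 mice), which did not differ beyond the spread from Cluster 9, and Cluster 17 had 71.9 ± 106 CPM (SD, n = 4 mice). Cluster 6 followed at 67.8 ± 31.4 CPM and stood above Cluster 10, at 31.5 ± 23.3 CPM, in 13 of 14 mice (1.00 ± 0.78). From there the order was Clusters 12, 2, 3, 13, 4, 14, 7, 11, 5, 8 and 15, without neighbours apart beyond their spread, and Cluster 15 had 0 UMIs in 5 mice, which allows up to 5.59 CPM at 3 counts over the group. By their means, Cluster 10 stood above Cluster 6 for Ftl1 and Fth1 and below it for Slc40a1.

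In Cluster 6, Slc40a1 was low at 1 d. Uninjured WT mice had 77.6 and 85.1 CPM and the uninjured cKO mouse 63.2 CPM. The WT mouse at 1 d had 0 UMIs, where 3 counts would be 63.0 CPM, and the cKO mice had 15.3 CPM (1 UMI) and 32.0 CPM (7 UMIs). Values at 7 d were 77.0 and 86.1 CPM in WT and 77.9 and 119 CPM in cKO, and values at 14 d were 69.2 and 78.4 CPM in WT and 83.3 and 84.6 CPM in cKO. Each of the 3 mice at 1 d lay below each of the other 11 mice, on 8 UMIs in 254 cells. Pooled over mice, the 174 UMIs at 14 d against 8 UMIs at 1 d gave a ratio of 3.31 (95% exact binomial interval 1.64 to 7.78, counting error only).

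From 1 d to 14 d, Slc40a1 in Cluster 6 rose by a fitted log2 fold change of 1.79 (standard error 0.45, adjusted p = 0.0389 from edgeR), against a median of 0.08 over all 5434 genes tested there. The difference between uninjured and 1 d was no call (−1.74, standard error 0.58, adjusted p = 0.237 from edgeR). The log2(CPM + 10) difference between 14 d and 1 d was 2.44 within the first batch and 1.12 within the second. The call was lost in DESeq2 (1.75, adjusted p = 0.0700), with group means (4.52, 0.0514), without the mice whose names differ (1.94, 0.162) and with the conditions of the names (0.79, 0.857). It was also lost without WT 1 d replicate 1 (1.52, 0.127), cKO 1 d replicate 1 (1.60, 0.106), cKO 1 d replicate 2 (3.19, 0.0879), WT 7 d replicate 1 (1.77, 0.0536), cKO 7 d replicate 2 (1.75, 0.0534), WT 14 d replicate 2 (1.77, 0.0690), cKO 14 d replicate 1 (1.84, 0.107) or cKO 14 d replicate 2 (1.84, 0.113), with adjusted p of 0.0284 to 0.127 over all mice left out in turn. In Cluster 6, macrophage markers summed to 441, 382 and 242 CPM at 1 d and to 1146, 554, 778 and 714 CPM at 14 d, with 8 of 8 genes detected over all mice and Lyz2 the most abundant. Their part was not tested.

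Lower Slc40a1 values at 1 d were also seen in the vessel clusters, without a call from edgeR. Endothelial cells of Cluster 1 had 290 to 368 CPM uninjured, 250, 293 and 109 CPM at 1 d, 361 to 451 CPM at 7 d and 311 to 496 CPM at 14 d. In Cluster 9 the values were 79.6 to 205 CPM uninjured, 51.8, 0 and 33.5 CPM at 1 d (7 UMIs) and 60.7 to 185 CPM at 14 d. In both clusters each mouse at 1 d lay below each mouse at 14 d. For Cluster 1 the log2 fold change from 1 d to 14 d was 0.96 in edgeR (standard error 0.27, adjusted p = 0.152), and DESeq2 called it (0.99, adjusted p = 0.0146), and for Cluster 9 it was 2.05 (standard error 0.61, adjusted p = 0.578 from edgeR).

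**Figure D2:**
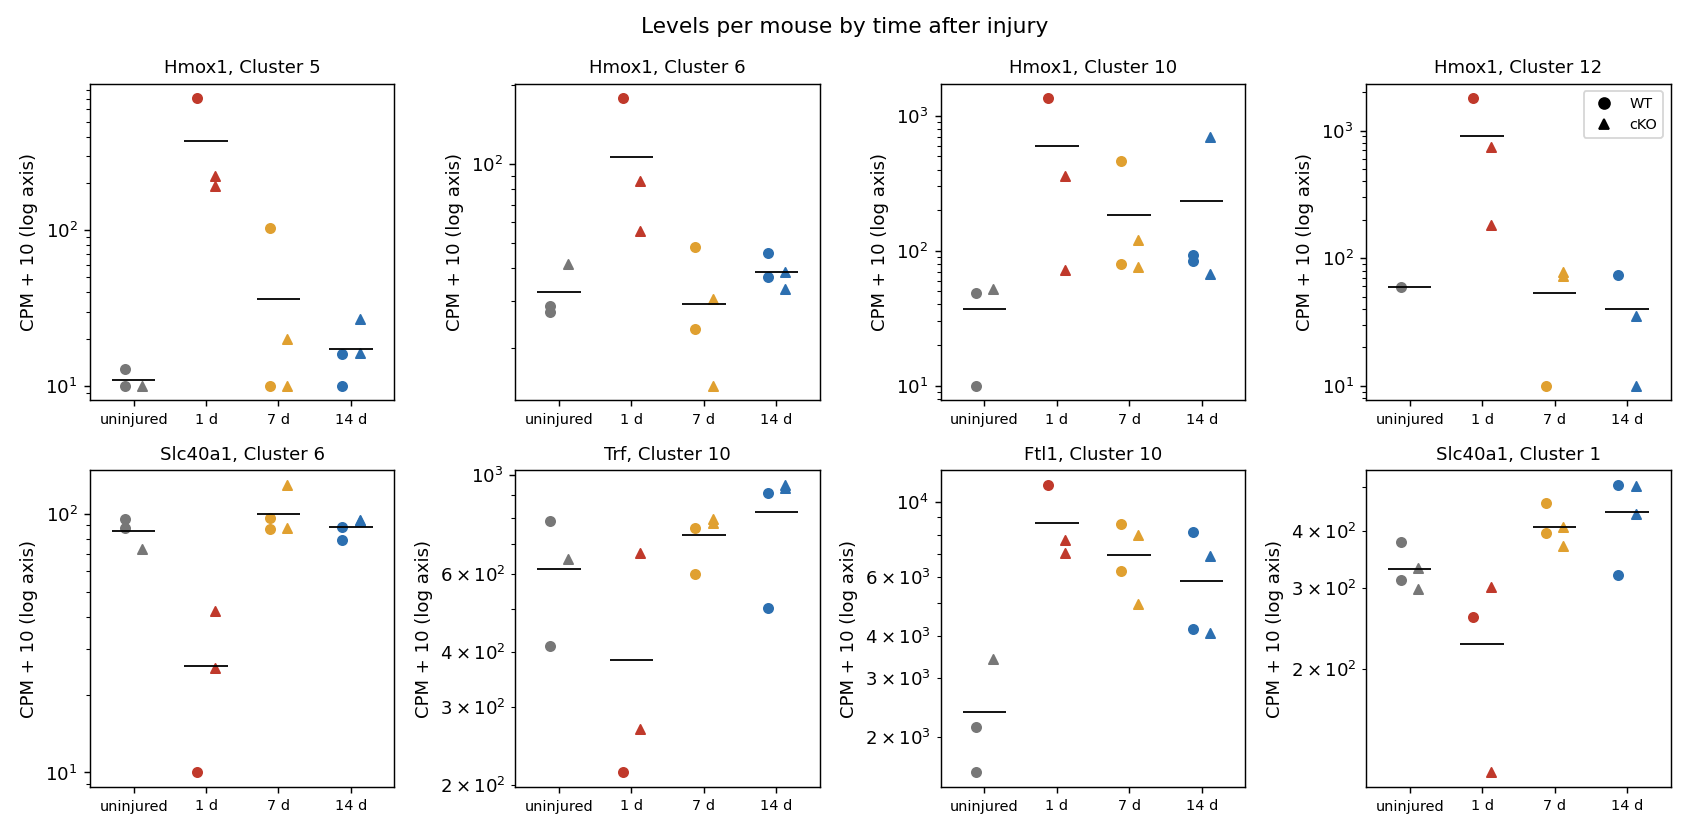
CPM + 10 (log axis, with a scale of its own in each panel) in each mouse at each time point for Hmox1, Slc40a1, Trf and Ftl1 in the clusters named, with WT mice as circles, cKO mice as triangles and the mean over mice as a bar. The 3 mice at 1 d lie above all other mice for Hmox1 in Clusters 5, 6 and 12 and below all other mice for Slc40a1 in Cluster 6.

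Cp (ENSMUSG00000003617.16, chromosome 3, 19957054 to 20009145), which encodes ceruloplasmin, the copper ferroxidase that works beside ferroportin, was a transcript of fibroblasts and vessel cells. Cluster 14 had 699 ± 617 CPM (SD, n = 9 mice), Cluster 9 had 417 ± 128 CPM and Cluster 1 had 317 ± 102 CPM (SD, n = 15 mice), and no 2 of these neighbours differed beyond their spread. Cluster 12, at 94.2 ± 106 CPM, lay below Cluster 1 in 10 of 10 mice (2.22 ± 1.08 on the log2 scale). The order went on with Clusters 11, 13, 15, 17, 2, 3, 5, 7, 4, 10, 6 and 8 to Cluster 16, which had 1 UMI in 5 mice. In the astrocyte clusters, where a membrane-bound form is known, it was at 19.8 ± 23.9 CPM in Cluster 5 (SD, n = 14 mice) and 19.7 ± 27.2 CPM in Cluster 7 (SD, n = 15 mice). In Cluster 14, Cp was at 1469 CPM (8 UMIs), 1910 CPM (14 UMIs) and 580 CPM (39 UMIs, the mouse with more oligodendrocyte than fibroblast markers) at 1 d and at 394, 869 and 289 CPM at 14 d, groups that overlapped. In 0 of its 32 tests did Cp pass edgeR's threshold.

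Cd163 (ENSMUSG00000008845.9, chromosome 6, 124304656 to 124330527), the scavenger receptor for haptoglobin-bound haemoglobin, was rare, with 134 UMIs in all cells. Cluster 12 held 72 of them, at 125 ± 187 CPM (SD, n = 10 mice), and stood above Cluster 9, at 2.85 ± 7.16 CPM, in 9 of 10 mice (2.79 ± 1.86 on the log2 scale). After Cluster 9 came Clusters 3, 10, 2, 7, 5 and 1, with no 2 neighbours apart beyond their spread and 19 UMIs in Cluster 3 at most. Clusters 4, 6, 8, 11 and 13 to 17 had 0 UMIs. For Cluster 6 that allows up to 0.718 CPM at 3 counts over the group. In Cluster 12 the uninjured mouse had 32.8 CPM, the mice at 1 d 39.8, 28.2 and 0 CPM on 1, 1 and 0 UMIs, those at 7 d 634, 92.8 and 113 CPM, and those at 14 d 191, 68.0 and 55.0 CPM. All 6 mice at 7 d and 14 d lay above all 3 mice at 1 d, and the highest value rested on 7 UMIs. The log2 fold change from 1 d to 14 d was 2.77 (standard error 1.04, adjusted p = 0.192 from edgeR), which was no call.

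Hmox1 (ENSMUSG00000005413.8, chromosome 8, 75093621 to 75100589), the inducible heme oxygenase that opens the heme ring, held 3 of the 5 calls. By cluster, its highest means were in Cluster 12, at 296 ± 569 CPM (SD, n = 10 mice), and in Cluster 10, at 245 ± 372 CPM (SD, n = 14 mice), which did not differ beyond their spread (−0.81 ± 2.78 on the log2 scale, Cluster 12 minus Cluster 10, and higher in Cluster 12 in 4 of 10 mice). Cluster 5 followed at 88.0 ± 190 CPM, below Cluster 10 in 12 of 14 mice (1.97 ± 1.61), then Cluster 16 at 48.5 ± 89.6 CPM and Cluster 6 at 39.3 ± 40.9 CPM. The order went on with Clusters 1, 15, 2, 11, 9, 4, 8, 13, 14, 7, 3 and 17, all at a mean of 10.7 CPM or less. In Cluster 17, red blood cells, it had 0 UMIs in 4 mice. Without the 4 mice of low depth, its mean was 63.0 ± 59.3 CPM in Cluster 12 (SD, n = 6 mice) and 146 ± 211 CPM in Cluster 10 (SD, n = 10 mice). Cluster 16 then had 80.9 ± 110 CPM (SD, n = 3 mice), so by mean Cluster 12 came after both Clusters 10 and 16.

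Of the clusters annotated as astrocytes, Cluster 5 had Hmox1 in every mouse at 1 d. Cluster 7 had 0 UMIs in the 4 uninjured mice, and at 1 d 0 UMIs in 2 mice and 24.1 CPM (7 UMIs) in cKO replicate 2. In Cluster 5 the uninjured mice had 0 and 2.77 CPM in WT and 0 CPM in cKO, which is 1 UMI in 522 cells. At 1 d the WT mouse had 699.5 CPM (19 UMIs), and the cKO mice had 214 CPM (3 UMIs) and 183 CPM (88 UMIs). At 7 d the values were 93.8 CPM (2 UMIs) and 0 CPM in WT and 0 and 10.1 CPM in cKO, and at 14 d they were 5.98 and 0 CPM in WT and 16.8 and 6.25 CPM in cKO. All 3 mice at 1 d were above all other 11 mice. Pooled over mice, 110 UMIs at 1 d against 1 UMI uninjured gave a ratio of 157 (95% exact binomial interval 27.6 to 6266, counting error only).

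The fitted log2 fold change of Hmox1 in Cluster 5 was 7.46 from uninjured to 1 d (standard error 1.19, adjusted p = 0.0270 from edgeR), higher in 3 of 3 mice, and −5.41 from 1 d to 14 d (standard error 0.77, adjusted p = 0.00646), lower in 4 of 4 mice. The uninjured side of the first value rests on 1 UMI. The pair passed the filter on low counts through the mice at 1 d, so the values compared also decided that it was tested. The medians over all 4709 genes tested in the cluster were −0.12 and 0.16. Between uninjured and 1 d, the log2(CPM + 10) difference was 5.32 in the first batch and 4.09 in the second, and between 1 d and 14 d it was −4.27 and −3.92.

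Single mice decided both calls of Hmox1 in Cluster 5. The rise at 1 d was no call without WT 1 d replicate 1 (6.44, adjusted p = 0.285), uninjured cKO replicate 2 (6.07, 0.283), cKO 7 d replicate 2 (7.38, 0.106), WT 14 d replicate 1 (7.44, 0.109) or cKO 14 d replicate 2 (7.41, 0.114), or with conditions taken from the cell names (6.61, 0.981). With single mice left out, its adjusted p ran from 0.00735 to 0.285. The fall to 14 d was no call without WT 1 d replicate 1 (−4.39, 0.124), WT 14 d replicate 1 (−5.32, 0.0584), WT 14 d replicate 2 (−4.59, 0.0789) or cKO 14 d replicate 2 (−5.51, 0.147). It was none with the names' conditions (−4.84, 0.150) or without the mice whose names differ (−4.43, 0.687), and its adjusted p ran from 0.000324 to 0.147 with single mice left out. Without the 4 mice of low depth, 1 mouse was left at 1 d, and neither comparison with 1 d could be tested.

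Markers of other cells in Cluster 5 were compared beside these values. The macrophage and monocyte list summed to 36.8, 0 and 22.9 CPM in the 3 mice at 1 d and to 0 to 49.3 CPM in the other mice. Over all mice, 6 of 8 genes were detected, with Lyz2 the most abundant, and Ms4a7 and Ccr2 at 0 UMIs. Oligodendrocyte markers, led by Mbp, summed to 1620, 3568 and 8674 CPM at 1 d and to 2421, 14523 and 18340 CPM uninjured. They summed to 2252 to 17192 CPM at 7 d and to 10162, 12253, 13825 and 16661 CPM at 14 d. Each mouse at 1 d thus lay below each mouse at 14 d. Astrocyte markers summed to 12959, 13844 and 11772 CPM at 1 d and to 15172, 11827 and 11237 CPM uninjured. At 14 d they were higher than at 1 d in every mouse, at 15974 to 17052 CPM. The part of this shift in the Hmox1 values was not tested.

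In Cluster 12, led by macrophage markers, the WT mouse at 1 d had 1790 CPM of Hmox1 (45 UMIs), and the cKO mice had 734 CPM (26 UMIs) and 172 CPM (23 UMIs). The uninjured mouse with enough cells had 49.1 CPM. At 7 d the values were 0 CPM in WT and 61.9 and 67.3 CPM in cKO, and at 14 d they were 63.6 CPM in WT and 25.5 and 0 CPM in cKO. Each mouse at 1 d stood above each of the other 7 mice. From 1 d to 14 d the log2 fold change was −4.77 (standard error 0.84, adjusted p = 0.0118 from edgeR), against a median of 0.09 over all 1992 genes tested there. Pooled counts of 94 and 5 UMIs gave a ratio of 26.8 at 1 d over 14 d (95% exact binomial interval 11.1 to 84.4, counting error only).

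Hmox1 in Cluster 12 differed by −4.50 within the first batch and by −4.19 within the second on the log2(CPM + 10) scale. The call was lost without WT 1 d replicate 1 (−4.36, adjusted p = 0.0836), with group means of all 8 conditions (−4.68, 0.112) and with conditions taken from the cell names (−4.15, 0.111), and it was kept without the mice whose names differ (−4.15, 0.0405). With single mice left out, adjusted p ran from 0.00279 to 0.0836. The macrophage list summed to 14718, 13119 and 14158 CPM at 1 d and to 28537, 24154 and 17991 CPM at 14 d, with 8 of 8 genes detected in each of these mice and Lyz2 the most abundant. At 14 d the 3 mice had 10 to 15 cells each. Microglia markers in Cluster 12 summed to 1034, 931 and 742 CPM at 1 d and to 2224, 2082 and 1077 CPM at 14 d. The part of these shifts in cells was not tested.

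Microglia showed the same direction in values, without a call by edgeR. In Cluster 6, Hmox1 was at 17.3 and 18.9 CPM in uninjured WT and 31.6 CPM in uninjured cKO, and at 168, 76.3 and 45.7 CPM at 1 d. It ranged from 4.33 to 38.5 CPM at 7 d and from 23.6 to 36.0 CPM at 14 d. The mice at 1 d lay above all others. The log2 fold change from 1 d to 14 d was −1.62 (standard error 0.50, adjusted p = 0.0793) in edgeR and −1.69 (adjusted p = 0.0450) in DESeq2.

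In Cluster 10, Hmox1 was at 38.9, 0 and 42.4 CPM in the uninjured mice, on 2 UMIs, and at 1344, 62.5 and 345 CPM at 1 d. Values were 449 and 70.4 CPM in WT and 110 and 66.1 CPM in cKO at 7 d, and 73.9 and 82.8 CPM in WT and 682 and 57.7 CPM in cKO at 14 d. Every injured mouse was above every uninjured one, and cKO 1 d replicate 1 lay within the range of the mice at 14 d. The log2 fold change from uninjured to 1 d was 4.09 (standard error 1.69, adjusted p = 0.276 from edgeR), and pooled counts of 102 and 2 UMIs gave a ratio of 15.6 (95% exact binomial interval 4.21 to 130, counting error only). Of the 667 UMIs in cKO 14 d replicate 1, 516 came from 1 cell, and the other 73 cells were at 159 CPM. WT 7 d replicate 1, which shares barcodes with WT 1 d replicate 1, was at 397 CPM in Cluster 10 and at 99.8 CPM in Cluster 5 without the cells of shared barcodes.

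The first day after a lesion is when blood and heme enter the tissue and when heme oxygenase can be induced. Transcripts that answer to heme or iron could differ there from the uninjured cord, but heme and iron were not measured, so a difference names no cause. At 1 d against uninjured, edgeR called 1 of the 47 pairs of gene and cluster that could be tested (1 higher, Hmox1 in Cluster 5), with 12 at an unadjusted p under 0.05, while DESeq2 called 2. Among all 52206 pairs of any gene and cluster, 0.0709% were called and 6.84% had an unadjusted p under 0.05, and the median log2 fold change was 0.23 for the 8 genes and 0.01 for all. Shares over all pairs are from edgeR, here and below. In Cluster 5, DESeq2 called 19 of all 4709 genes at 1 d, where edgeR called 2. Genes pass the filter on low counts more easily where they are high, so the pairs tested are not a fair sample of the 80 possible. Hmox1 in Cluster 5 passed it through the mice at 1 d. The count was 0 without WT 1 d replicate 1, cKO 7 d replicate 2, cKO 14 d replicate 2 or uninjured cKO replicate 2, and 0 with conditions taken from the cell names. Without WT 14 d replicate 1 it stayed at 1, but Hmox1 in Cluster 5 was lost and Ftl1 in Cluster 10 was gained (adjusted p = 0.0402 from edgeR). Without the mice whose names differ, 1 uninjured mouse had enough cells in Cluster 5, so that pair could not be tested.

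By 7 d and 14 d, phagocytes have entered the lesion and taken up debris and red cells. These time points show which transcripts still differ from the uninjured cord, and both comparisons use the same uninjured mice. At 7 d against uninjured, edgeR called 0 of 51 pairs, with 6 at an unadjusted p under 0.05, while DESeq2 called 2 (Fth1 in Cluster 8 and Ftl1 in Cluster 10). Of all 56968 pairs, 0.0562% were called and 8.13% had an unadjusted p under 0.05. Without uninjured WT replicate 1 or WT 14 d replicate 1, edgeR's count was 1. At 14 d against uninjured, edgeR also called 0 of 51 pairs, with 3 at an unadjusted p under 0.05, while DESeq2 called 1 (Fth1 in Cluster 8), against 0.193% of all pairs called and 9.04% at an unadjusted p under 0.05. Without uninjured WT replicate 1 the count was 1. The medians over the 8 genes were −0.07 at 7 d and 0.00 at 14 d, and those over all pairs 0.03 and 0.05.

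The comparison of 14 d with 1 d follows the early response as it resolves. It needs no uninjured mice and so keeps clusters, such as Cluster 12, that are scarce in the intact cord. Between 1 d and 14 d, edgeR called 4 of 61 pairs, 2 higher at 14 d (Slc40a1 in Cluster 6 and Trf in Cluster 10) and 2 lower (Hmox1 in Clusters 5 and 12), with 16 at an unadjusted p under 0.05, while DESeq2 called 5. Of all 61164 pairs, 0.793% were called, 162 higher and 323 lower, and 10.8% had an unadjusted p under 0.05. Over all genes, DESeq2 called 30 in Cluster 5, 242 in Cluster 6, 302 in Cluster 10 and 64 in Cluster 12. The counts from edgeR there were 5, 166, 207 and 53. The median log2 fold change was −0.21 for the 8 genes and 0.06 for all pairs. Without WT 1 d replicate 1 the count was 0, and it was 1 without WT 14 d replicate 2 or cKO 14 d replicate 2 and 2 without cKO 1 d replicate 2. The comparisons with 1 d share the same 3 mice at 1 d, 2 of them of low depth, so calls at 1 d against uninjured and against 14 d are not independent. Hmox1 in Clusters 5 and 12 also passed the filter on low counts through those mice.

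Astrocytes border the vessels and respond to Wnt signals after injury, and loss of Ryk in them could reach iron handling in other cells as well. Ryk genotype was compared over the injured mice, among uninjured mice, and as the difference between these. After injury, edgeR called 0 of 65 pairs in cKO against WT, with 4 at an unadjusted p under 0.05, while DESeq2 called 0, against 0.00607% of all 65926 pairs called and 2.09% at an unadjusted p under 0.05. The lowest adjusted p was 0.759, for Cd163 in Cluster 12 (log2 fold change −1.93, standard error 0.75). Among uninjured mice edgeR and DESeq2 called 0 of 25 pairs (2 at an unadjusted p under 0.05), with 0% of all 30706 pairs called and 3.73% at an unadjusted p under 0.05. For the effect of injury on the genotype difference, edgeR and DESeq2 likewise called 0 of 25 pairs (2 at an unadjusted p under 0.05), and over all pairs 0% were called and 3.82% had an unadjusted p under 0.05. In Hmox1 in Cluster 5 at 1 d, where the WT mouse was higher than both cKO mice, WT is a single mouse of low depth, so genotype and mouse cannot be told apart.

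A further 68 genes of iron and heme metabolism were followed in the same fits, in lists by role. At 1 d against uninjured, 2 of 238 pairs were called, against 0.0709% of all pairs, both higher and both Lcn2, a protein that binds the iron carriers of bacteria and is a known mark of reactive astrocytes. Lcn2 was at 0.923 CPM uninjured and 540 ± 588 CPM at 1 d in Cluster 5 (1 and 161 UMIs, log2 fold change 8.02, standard error 1.32, adjusted p = 0.0270 from edgeR), and at 8.17 ± 2.99 and 688 ± 311 CPM in Cluster 1 (6.06, 0.79, adjusted p = 0.00848). In Cluster 5, Lcn2 had 4 UMIs at 7 d and 7 UMIs at 14 d, so that pair passed the filter on low counts through the mice at 1 d. Both pairs belong to the list of iron uptake and reduction, in which 20 pairs were tested. In the lists of storage, sensing, heme transport, heme breakdown, heme synthesis, iron-sulfur clusters and Nrf2 and Bach1 targets, 0 pairs were called by edgeR at 1 d. Over all lists, 23 of the 238 pairs had an unadjusted p under 0.05, against 6.84% of all pairs, while DESeq2 called 3.

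From 1 d to 14 d, 7 of 280 pairs of these other genes were called, 1 higher and 6 lower, and 9 by DESeq2. Of all 61164 pairs, 0.793% were called, 162 higher and 323 lower. An unadjusted p under 0.05 was found in 41 of the 280 pairs and in 10.8% of all. Lcn2 was lower at 14 d in Cluster 5 (log2 fold change −5.71, standard error 0.84, adjusted p = 0.00646 from edgeR) and in Cluster 1 (−4.28, 0.64, 0.0113), and in Cluster 14, where 21 UMIs at 1 d (0 to 283 CPM, so 1 mouse had none) stood against 0 UMIs at 14 d. In Cluster 14 it had 0 UMIs uninjured and 2 UMIs at 7 d. The pairs of Lcn2 in Clusters 5 and 14 thus passed the filter on low counts through the mice at 1 d. Slc39a14, a carrier of iron not bound to transferrin, was lower in both microglial clusters, by −2.74 in Cluster 6 (standard error 0.57, adjusted p = 0.0175) and −2.54 in Cluster 10 (0.59, 0.0182), with means of 113 and 130 CPM at 1 d, 14.2 and 20.4 CPM at 14 d, and 5 UMIs and 1 UMI uninjured. Mt2, a metallothionein, was lower in Cluster 10 (−2.36, 0.50, 0.0121), at 158 ± 149 CPM at 1 d, 37.3 ± 12.1 CPM at 14 d and 36.6 ± 63.4 CPM uninjured. Bach1, the heme-sensing repressor of Hmox1, was higher in Cluster 6 at 14 d than at 1 d (1.79, 0.45, 0.0383), at 139 ± 36.2 and 26.4 ± 33.4 CPM. It was at 124 ± 15.8 CPM uninjured and 129 ± 26.7 CPM at 7 d, so the mean at 1 d was the one that stood apart. That mean rests on 15 UMIs in 3 mice (0 to 63.9 CPM), 2 of them of low depth. Bach1 at 1 d against uninjured was no call. At 7 d and 14 d against uninjured and in the genotype comparisons, edgeR and DESeq2 called 0 pairs, with 18 and 22 of 259 pairs at an unadjusted p under 0.05 at 7 d and 14 d, against 8.13% and 9.04% of all pairs. In the genotype comparisons these were 12 of 301 pairs after injury, 2 of 136 uninjured and 3 of 136 for the effect of injury, against 2.09%, 3.73% and 3.82% of all. With single mice left out, the count ranged from 0 to 2 at 1 d (0 without WT 1 d replicate 1 or uninjured cKO replicate 2) and from 0 to 11 between 1 d and 14 d (0 without cKO 14 d replicate 2, 2 without WT 1 d replicate 1, 3 without cKO 14 d replicate 1 and 11 without uninjured WT replicate 1). It reached 1 at 7 d and 2 at 14 d against uninjured, and 1 in cKO against WT after injury (without cKO 1 d replicate 2). Without the filter on low counts, the counts were 4 at 1 d, 1 at 7 d and 3 at 14 d against uninjured and 19 between 1 d and 14 d, over more pairs. A replicate block gave 11 calls between 1 d and 14 d, group means of 8 conditions gave 3, and conditions taken from the cell names gave 0 in every comparison run. Calls over all genes moved as well. Between 1 d and 14 d, those in Clusters 5, 6, 10 and 12 were 5, 166, 207 and 53 in the main fit. They were 70, 313, 379 and 90 without the filter, and 18, 264, 258 and 79 with the block. With group means they were 3, 46, 45 and 1, and with the names' conditions 0, 0, 9 and 18. Without the mice whose names differ, 0 of 116 pairs were called at 1 d and 2 at 14 d against uninjured, and 1 between 1 d and 14 d. Lcn2 in Cluster 5 could not be tested at 1 d there, as 1 uninjured mouse was left, so for it the 0 is no lost call.

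Genes with the most similar pattern over clusters were sought among 10194 genes, by Pearson's r of log2(mean CPM + 10) over the 17 clusters, which share libraries and depth. For Trf they were Mast3 (r = 0.884), Trim36 (0.877) and Plpp2 (0.857), for Tfrc Clic5 (0.895), Foxl2 (0.873) and Tmem252 (0.865), and for Slc40a1 Arap3 (0.954), Sh2d3c (0.919) and Acvrl1 (0.909). Fth1 was most like Mpst (0.836), Pdlim2 (0.812) and Cox4i1 (0.802), and Ftl1 most like Pfn1 (0.966), Arpc2 (0.947) and Ssr4 (0.941). Cp was nearest to Nr2f2 (0.882), Ptpn14 (0.881) and Cavin1 (0.871). Hmox1 was nearest to Plin2 (0.884), 5430427O19Rik (0.88) and Cndp2 (0.873), and Cd163 to Retnla (0.993), Mgl2 (0.992) and Gm20513 (0.992), the latter values set by a single cluster. Genes were thus grouped by where they are high, with no statement on shared function.

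Iron itself controls several of these transcripts through the iron-responsive element, a hairpin that binds iron regulatory proteins and blocks translation from a 5′ UTR or protects the RNA from a 3′ UTR. These sites are shown because a 5′ element can alter the protein of Fth1, Ftl1 and Slc40a1 without altering the counts above, whereas the 3′ elements of Tfrc act on the RNA that was counted. The pattern searched in transcript sense was a C, 5 bases, the loop CAGTGN and 5 bases, with the 5 bases before the loop pairing with the 5 after it (A with T, G with C, G with T), in all UTRs of GENCODE vM21 transcripts (mm10). A 5′ UTR match was found in Fth1, Ftl1 and Slc40a1, and 31 of 20899 genes with a 5′ UTR held one (0.148%). Tfrc held 4 matches in its 3′ UTR, where 129 of 21685 genes held one (0.595%), and Hmox1, Trf, Cp and Cd163 held 0. Capitals mark the 6 bases of the loop, and a match is a description, not a tested site. The lines below give the sites at chr19:9982733-9982759 (plus strand), chr7:45459780-45459806 (minus), chr1:45925466-45925492 (minus) and chr16:32631220-32631246 (plus), the last being the first of the 4 in Tfrc.
Fth1: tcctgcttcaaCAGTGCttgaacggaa
Ftl1: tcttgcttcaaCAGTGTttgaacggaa
Slc40a1: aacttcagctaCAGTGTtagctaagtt
Tfrc: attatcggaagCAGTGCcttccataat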

How the data were processed

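The authors processed the reads before the files were deposited: per the authors' methods, Cell Ranger aligned them to GRCm38 (mm10) and made the UMI counts, and Seurat in R 4.1.2 defined the clusters. The deposited counts, cluster labels and sample titles were used. Counts were summed per mouse and cluster (at least 10 cells) and fitted with edgeR 4.0.16 in R 4.3.3 (TMM scaling, filterByExpr by time point, quasi-likelihood test), with means of the 4 time points and a genotype difference in uninjured and in injured mice. p was adjusted by Benjamini-Hochberg over all genes of a cluster, with a threshold of 0.05. A comparison needed 2 mice per side and 3 residual degrees of freedom. DESeq2 1.42.0 was the second tool. Python 3.11.15 served for levels and figures (matplotlib 3.10.9, numpy 2.4.6, scipy 1.17.1, pandas 2.3.3). The fit was tested on simulated data.

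The members and lists were chosen with earlier results of these data known. Named genes were the 8 members, the 3 most similar genes of each (among genes with at least a mean of 50 CPM in 1 cluster) and up to 8 called pathway genes per comparison. Whether mice of the same replicate number pair was checked in Cluster 1, by correlating the log2 difference between replicates 1 and 2 between groups over 4005 genes: of 21 pairs of groups, 12 had r over 0.1 (median 0.120), and a replicate block was tried as an alternative. Other alternatives were DESeq2, its size factors, no filter, at least 30 cells, means of 8 conditions, mice left out, the conditions of the cell names, and removal of cells with shared barcodes. Doublets were not called and no doublet scores were used. WT 1 d replicate 2, with 1 cell, was left out.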

Additional observations from a re-analysis of the deposited data

Results flagged for a closer look

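A mouse far from the other mice of its time point in a cluster was looked for with Dixon's ratio in 32 groups, where about 1 in 20 would be flagged by chance. Each of the groups named below held 4 mice.

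Hmox1 in WT 7 d replicate 1 was flagged in 2 clusters. It was at 93.8 CPM in Cluster 5, on 2 UMIs, with the other mice at 0 to 10.1 CPM, and at 449 CPM in Cluster 10, with the others at 66.1 to 109.7 CPM. This mouse has low depth and shares barcodes with mice at 1 d. Without the cells of shared barcodes it was at 99.8 and 397 CPM. Hmox1 in Cluster 10 was also flagged in cKO 14 d replicate 1, at 682 CPM with the others at 57.7 to 82.8 CPM, of which 516 of 667 UMIs came from 1 cell.

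Trf in Cluster 10 was at 491 CPM in WT 14 d replicate 1, below the others at 899.6 to 941 CPM. Tfrc in Cluster 1 was at 848 CPM in WT 14 d replicate 2, above the others at 546 to 560.4 CPM. Cd163 in Cluster 9 was at 25.6 CPM in WT 7 d replicate 2, with the others at 0 to 1.55 CPM, and at 2.32 CPM in WT 14 d replicate 2, with the others at 0 CPM, where the ratio is 1 for any value above 0 and so says nothing on how far this mouse lies. The reasons were not tested.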

How the results depend on the processing

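The number of gene and cluster pairs called among the 8 genes depended on the settings. With DESeq2 it was 2 at 1 d, 2 at 7 d and 1 at 14 d against uninjured, where edgeR called 1, 0 and 0. Without the filter on low counts, edgeR called 4, 3 and 3 pairs, and 9 in place of 4 between 1 d and 14 d, over more pairs tested. These included Trf in Cluster 4 and Hmox1 and Ftl1 in Cluster 10 at 1 d, Fth1 in Cluster 1 at 7 d and 14 d, and Slc40a1, Hmox1, Trf and Tfrc in Cluster 1 between 1 d and 14 d. Calls over all genes rose too without the filter, from 2 to 29 in Cluster 5 at 1 d against uninjured. Between 1 d and 14 d, Clusters 5, 6, 10 and 12 had 70, 313, 379 and 90 calls without it. With the filter they had 5, 166, 207 and 53. With at least 30 cells per mouse, 1 pair was called at 7 d and 1 at 14 d against uninjured. Group means of 8 conditions left 1 call between 1 d and 14 d. Over all genes, Clusters 5, 6, 10 and 12 then had 3, 46, 45 and 1 calls. Without the mice whose cell names differ, 0 pairs were called at 1 d against uninjured and 1 between 1 d and 14 d, while conditions taken from the cell names gave 0 and 0. Hmox1 in Cluster 5, the pair called at 1 d, could not be tested without these mice, as 1 uninjured mouse was left in that cluster, so the 0 there is no lost call. Causes were not tested.

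With each mouse left out in turn, calls ranged from 0 to 1 at 1 d, from 0 to 1 at 7 d and from 0 to 1 at 14 d against uninjured, and from 0 to 4 between 1 d and 14 d. The genotype comparisons had 0 calls in every setting run. DESeq2's size factors, a replicate block and removal of cells with shared barcodes left edgeR's counts unchanged. The 5 called differences kept their direction in every setting run. The order of clusters by mean Hmox1 did not, as Cluster 12 led with all mice and came after Clusters 10 and 16 without the mice of low depth.

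Over the settings, the highest levels moved widely for 3 genes. Hmox1 in Cluster 12 (296 CPM) ranged from 40.8 to 659 CPM, Cd163 in Cluster 12 (125 CPM) from 48.4 to 124 CPM and Cp in Cluster 14 (699 CPM) from 393 to 717 CPM. Fth1 in Cluster 8 ranged from 25839 to 38093 CPM. Without the mice of low depth, comparisons with 1 d could not be run, as 1 mouse was left. Conditions taken from the names, and removal of the mice whose names differ, could not be run for the genotype difference in uninjured mice or for the effect of injury on it. Depth limits Hmox1, Slc40a1 and Cd163, whose calls and values rest on few UMIs, and each group holds at most 2 mice.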
